A study of Mus musculus with 12 samples.

Results

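Hippocampal RNA was compared between 3 mice that lack exon 7 of Shank2 and 3 wild-type mice of the same line. They were taken by their genotype labels, exon 7 deletion mutant or its control, and are 6 of the 12 mice of the series. The other 6 mice belong to a line without exons 6 and 7 and enter here in the scaling, the choice of genes tested, the estimate of spread between mice and 1 test of a difference between lines. Mice are named by genotype and the animal's number in the labels, KO969, KO990 and KO994 for the knockouts and WT628, WT993 and WT999 for the wild types. All 6 carry a mixed background of C57BL/6J and C57BLl/6N, spelled so in the labels, and the protocols speak of male littermates aged 8 to 15 weeks that were used in behavioural experiments. Each library is 1 animal, so the spread below is between animals and their libraries. Poly(A) RNA was sequenced, and the values are FPKM per gene, which are scaled by transcript length and library size. The number of reads behind a value is unknown.

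Shank2 encodes a large scaffold protein of the postsynaptic density, the protein layer under the membrane of excitatory synapses. Through its domains it ties glutamate receptor complexes, by way of Dlgap and Homer proteins, to the actin cytoskeleton. Mutations in the gene are known in people with autism, and mice without it are used as a model of altered social behaviour and altered NMDA receptor function.

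The number of the deleted exon does not settle which stretch it is. The annotation (GENCODE M21, GRCm38) holds 6 Shank2 transcripts with 2 to 23 exons, and the labels do not say whose numbering is meant. In Shank2-202, with 16 exons and 8169 bases, exon 7 lies at chr7:144286642-144286766 on the plus strand. It has 125 bases, which leaves a remainder of 2 when divided by 3, and makes up 1.53% of the transcript. The same exon occurs in 5 of the 6 transcripts, under other numbers. In Shank2-203, with 23 exons, the number 7 falls on another exon of 168 bases (chr7:144070024-144070191). Number 7 has 117 bases in Shank2-206, 131 in Shank2-205 and 112 in Shank2-201, each a further exon. Which exon the mice lack was not established from the files. The sequence of exon 7 of Shank2-202 is shown, all in lower case, as the candidate that occurs in more of the annotated transcripts than the others.
Shank2-202 exon 7: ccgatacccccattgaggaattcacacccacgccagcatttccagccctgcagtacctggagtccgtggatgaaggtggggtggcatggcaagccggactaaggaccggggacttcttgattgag

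The level of Shank2 did not part the genotypes. Shank2 (ENSMUSG00000037541, chromosome 7, 144001928 to 144424494) was at 36.0 scaled FPKM in WT628, 42.4 in WT993 and 44.1 in WT999. The knockouts KO969, KO990 and KO994 had 33.2, 43.5 and 44.6. The 2 lowest values were those of WT628 and KO969, and the genotypes overlapped fully. The means were 40.8 ± 4.24 and 40.4 ± 6.29 (SD, n = 3 each). The log2 fold change was −0.02 with a 95% interval of −0.28 to 0.24 (limma adjusted p = 1; two-sided exact permutation p = 0.9, where the smallest that 3 mice against 3 can give is 0.1). A gene-level value covers every exon that remains, so it cannot check the genotype label of these mice.

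The largest difference among the 6 mice did not follow genotype. WT628 and KO969 (called set A) do not list the gene ENSMUSG00000095746, which was at 278 to 424 FPKM in the other 4 mice (set B). In set A mitochondrial transcripts made up 13.6 and 14.3% of the summed values, and in set B 10.3 to 10.9%. The first principal component held 52.7% of the variance, with set A at 29.8 and 24.0 and set B from −16.9 to −9.44. The second held 14.8% and had all 3 knockouts on one side (−10.4 to −7.58) and all 3 wild types on the other (4.02 to 18.4), WT999 farthest out. By relabelling 3 mice against 3, a given component parts the groups with a probability of 0.1. The next 3 components held 11.2, 10.8 and 10.5%, little less than the second, so the second is not shown to be an axis of genotype. Across genes the correlation was 0.988 within set A, 0.986 to 0.989 within set B, and 0.968 to 0.977 between the sets. Both genotypes occur in both sets, with 2 mice in set A and 4 in set B, so values within sets are given beside the pooled ones. What made the sets differ was not tested.

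**Figure D1:**
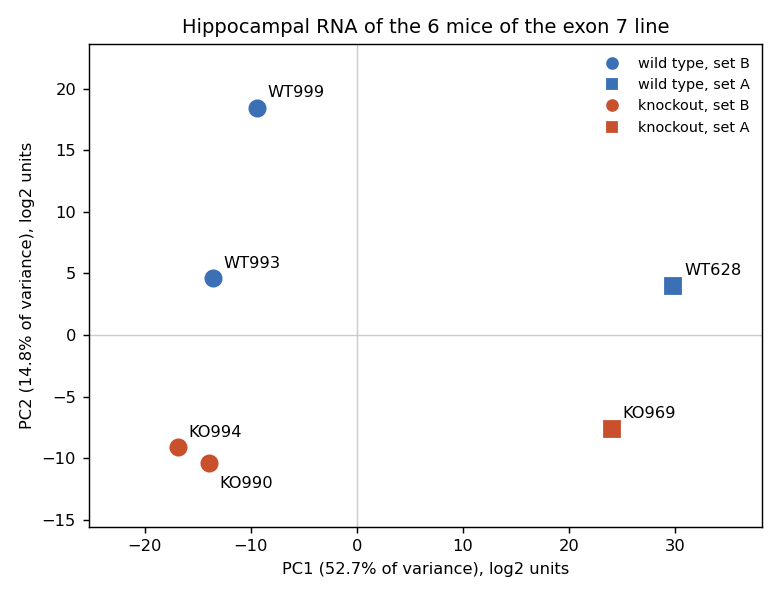
First and second principal components of log2(scaled FPKM + 1) over the 14214 genes tested, 1 point per mouse, squares for set A and circles for set B. Set A lies to the right (29.8 and 24.0), and the knockouts lie below all wild types on the second component. Relabelling 3 mice against 3 gives such a parting with a probability of 0.1.

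No gene passed the test between exon 7 knockout and wild-type mice. With limma, 0 of 14214 genes tested (0%) passed the adjusted threshold of 0.05. At the same threshold without adjustment there were 492 genes (3.46%), where chance alone gives 710.7. The lowest adjusted p was 0.724. The genotypes did not overlap in 1000 genes (7.04%). By relabelling 3 mice against 3, a gene without a difference parts the groups with a probability of 0.1, so this share is not above chance. Every knockout exceeded every wild type in 465 of them (3.27% of genes tested), and the reverse held in 535 (3.76%). The differences in these genes were small, with a median size of 0.24 and 0.19 on the log2 scale, and 57 of the higher and 23 of the lower genes differed by 0.5 or more. Without adjustment the typical 95% interval of a gene reached 0.30 log2 units to each side. A smaller change could not be told from 0 in a typical gene, and passing over all genes took more. Ccnd1, at −0.72 with an SE of 0.120, had a limma adjusted p of 0.724. With the library set as a covariate the typical interval reached 0.22 to each side. Then 1172 genes (8.25%) were under 0.05 before adjustment, and again 0 (0%) passed, the lowest adjusted p being 0.0995. The genes named next are therefore described by their values, none of them passing over all genes.

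**Figure D2:**
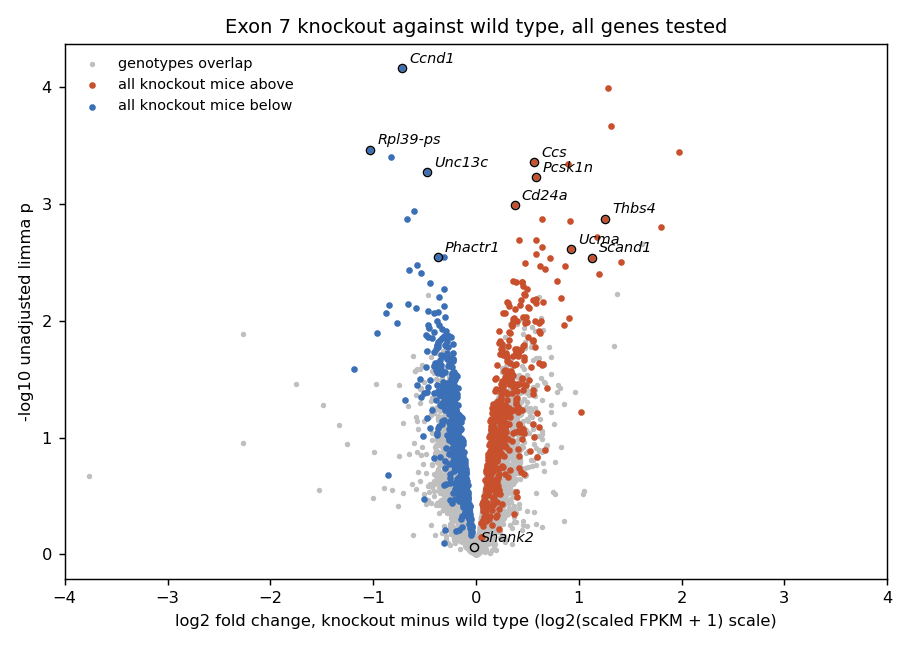
Log2 fold change of each gene tested (x axis, log2(scaled FPKM + 1) scale) against −log10 of its unadjusted limma p (y axis). Red points are the 465 genes with every knockout higher than every wild type, blue points the 535 with every knockout lower, circled points are named, and Shank2 lies near 0 on both axes.

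Among the genes with higher values in all 3 knockouts were a matrix protein, an inhibitor of hormone processing and a copper chaperone. Thbs4, a thrombospondin of the extracellular matrix (ENSMUSG00000021702, chromosome 13, 92751590 to 92794818), was at 2.61 scaled FPKM in WT628, 4.55 in WT993 and 3.59 in WT999, against 5.37 in KO969, 13.9 in KO990 and 12.1 in KO994. KO990 and KO994 stood far above, and KO969 only just above WT993. Its log2 fold change was 1.25 (SE 0.301, limma adjusted p = 1), 0.82 within set A and 1.47 within set B. Pcsk1n, whose product proSAAS inhibits the prohormone convertase PC1/3 (chromosome X, 7919822 to 7924410), was at 75.8, 71.9 and 78.8 in the wild types and at 102, 108 and 133 in the knockouts. Here the gap between the groups was wider than the range within the wild types and narrower than that within the knockouts. The log2 fold change was 0.58 (SE 0.125, adjusted p = 0.836). Ccs, which delivers copper to superoxide dismutase 1 (chromosome 19, 4825366 to 4839332), was at 6.24, 7.29 and 6.04 against 10.7, 8.57 and 11.3 (log2 fold change 0.57, SE 0.118, adjusted p = 0.812), with the lowest knockout value in KO990. Cd24a, a surface glycoprotein of immature neurons and other cells (chromosome 10), was at 15.8, 16.6 and 13.9 against 20.8, 20.6 and 19.6 (log2 fold change 0.38, SE 0.0871), a difference of 0.37 within set A and 0.38 within set B.

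Genes of varied function made up the remaining names with higher values. Slc15a2, a peptide transporter of astrocytes and choroid plexus (chromosome 16), was at 17.2, 11.6 and 11.8 in WT628, WT993 and WT999, and all 3 knockouts lay between 20.7 and 21.5 (log2 fold change 0.63). Slc16a13, of the monocarboxylate transporter family, was at 2.11 to 2.69 in wild types and 2.93 to 5.56 in knockouts (0.67). Scand1, a small nuclear protein with a SCAN domain, was at 3.13, 4.38 and 4.74 against 5.40, 11.8 and 15.2 (1.13), and Ucma, a secreted cartilage matrix protein, at 1.75, 3.18 and 2.30 against 3.19, 6.68 and 7.02 (0.92). In both genes KO969 lay next to the wild types, as it did for Thbs4, and the other 2 knockouts, which also had the highest sums of ependymal markers (54.1 and 57.2, where the other 4 mice had 28.1 to 35.9), were far above. Spata18, a mitochondrial quality control protein, followed the same order at a lower level (0.94 to 1.27 against 1.51, 3.13 and 2.63; 0.64). Below 5 scaled FPKM in every mouse were Dnph1, a nucleotide hydrolase (0.64), Mocs1 of molybdenum cofactor synthesis (0.42) and Fhdc1, which acts on actin and microtubules (0.59). Outside the rule that chose these names, Ndn, the imprinted gene of the neuronal protein necdin, was picked after its values were seen. It was at 64.6, 61.2 and 59.4 in the wild types, at 63.6 in KO969, and at 114 and 118 in KO990 and KO994 (log2 fold change 0.61, limma adjusted p = 1). KO969 was inside the wild-type range, and without that mouse Ndn passed (log2 fold change 0.90, adjusted p = 0.0148). The clone-named gene Gm13771, also picked after its values were seen, was unlisted in the 3 wild types and at 1.11, 1.95 and 1.34 in the knockouts.

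The gene with the smallest p was Ccnd1, the gene of cyclin D1, which drives cells from G1 towards DNA replication. Ccnd1 (ENSMUSG00000070348, chromosome 7, 144929931 to 144939925, minus strand) was at 18.01 scaled FPKM in WT628, 17.1 in WT993 and 12.5 in WT999, against 9.26 in KO969, 8.92 in KO990 and 9.28 in KO994. The knockouts were nearly equal, and the wild types spread, WT999 being nearest to them. The log2 fold change was −0.72 (SE 0.120, 95% interval −0.98 to −0.45, limma adjusted p = 0.724), −0.89 within set A and −0.63 within set B. Without WT999 it was −0.87 and passed (adjusted p = 0.0298), as did Spata5 (−0.76, adjusted p = 0.0300), an ATPase of ribosome assembly that was at 12.1, 12.6 and 7.41 in the wild types and 6.67 to 7.29 in the knockouts. For both genes the call without that mouse rests on 2 wild types.

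Synaptic and signalling genes were also among those lower in all knockouts. Unc13c, which primes synaptic vesicles for release (chromosome 9, 73479422 to 73968966), was at 4.43, 4.28 and 4.17 against 2.61, 2.97 and 2.86 (log2 fold change −0.47, SE 0.101, limma adjusted p = 0.836). Its genotypes lay far apart relative to their ranges, at a level of a few FPKM. Phactr1, a regulator of actin and of protein phosphatase 1 (chromosome 13), was at 144, 120 and 122 against 91.2, 99.7 and 106 (−0.37). Gpr3, a receptor that raises cyclic AMP without a ligand, was at 4.39, 3.35 and 3.26 against 2.19, 2.29 and 1.4 (−0.66). Usmg5, a small subunit of the mitochondrial ATP synthase, was at 78.7 to 85.1 in wild types and 60.9 to 73.0 in knockouts (−0.31). Plpp4, a lipid phosphatase (−0.36), Dnajc28, of the DnaJ family (−0.31), and the chemokine gene Ccl9 (−0.84) completed the named protein-coding genes. Ccl9 was at 0.601 in WT628 and 0.582 in KO969, so its difference lay in set B. The ribosomal pseudogene Rpl39-ps (127 ± 10.8 against 64.7 ± 22.0, SD, n = 3 each; −1.03), the zinc finger pseudogene Zfp133-ps (−0.45) and Chrna1os, antisense to an acetylcholine receptor gene (−0.68), are uncertain, since how strand and reads with several matches were treated is not stated in the sources at hand.

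**Figure D3:**
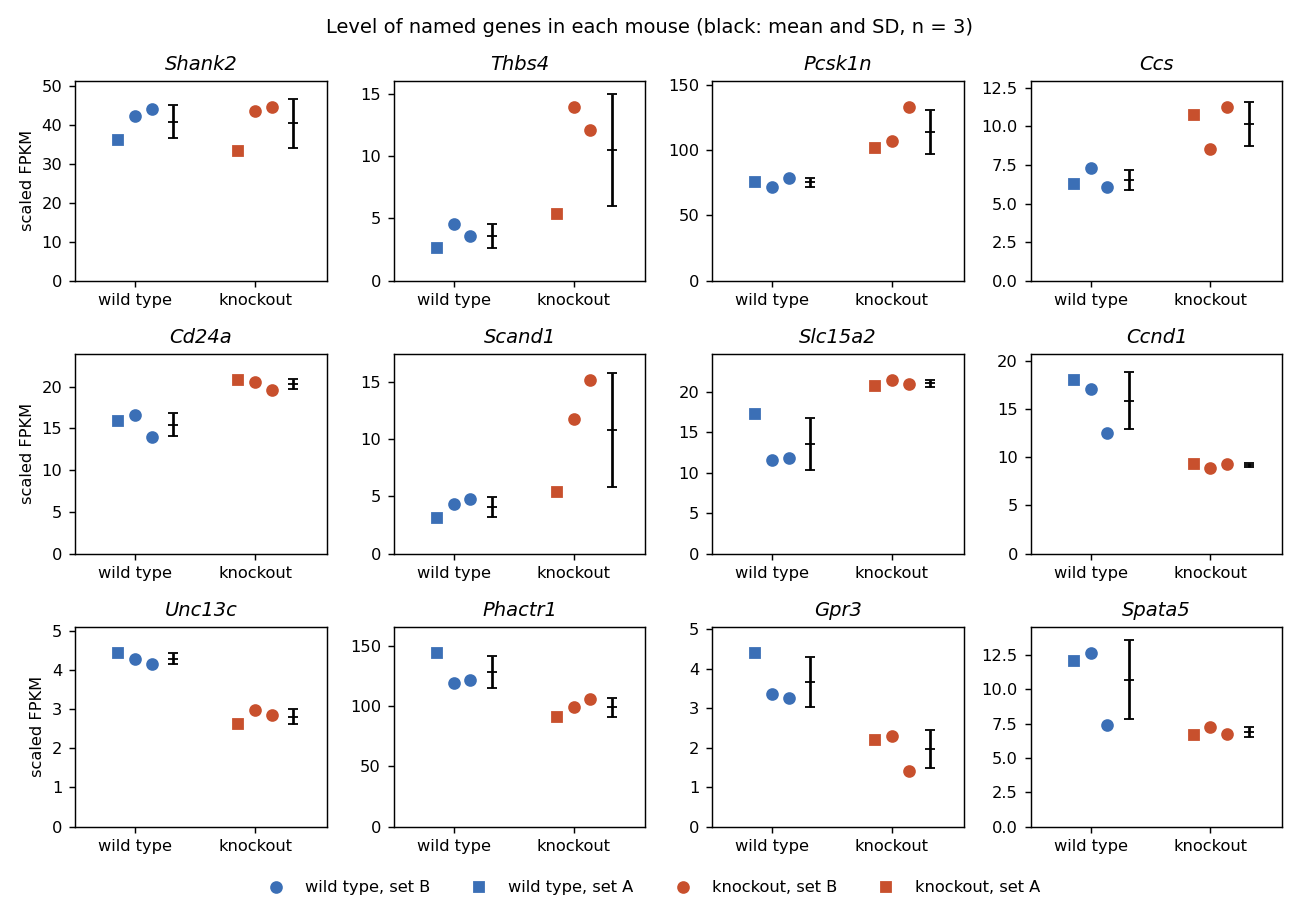
Scaled FPKM (y axis, from 0) of 12 genes in each mouse, wild type in blue and knockout in red, squares for set A and circles for set B, with the mean and SD of 3 mice in black. Shank2 overlaps between genotypes, Thbs4 and Scand1 are highest in KO990 and KO994, and Ccnd1 lies between 8.92 and 9.28 in all knockouts.

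Ccnd1 is a neighbour of Shank2 on chromosome 7. It lies 505 kb beyond the end of Shank2, and it was set among the protein-coding genes tested within 5 Mb. These were 74 genes with a median log2 fold change of 0.04, 45 above 0 and 29 below, while the median of all genes tested was −0.01. In 4 of them all knockouts were above and in 3 below, beside 3.27% and 3.76% of all genes. Within 1 Mb lay 15 genes, 2 of them with all knockouts below, Ccnd1 and Tpcn2. Tpcn2, a calcium channel of lysosomes 762 kb beyond Shank2, was at 1.30, 1.32 and 1.68 against 1.17, 1.16 and 0.786 (log2 fold change −0.26). LTO1, of ribosome biogenesis, 491 kb beyond Shank2 on the plus strand, leaned the other way, with 8.54, 6.74 and 7.20 against 10.3, 8.27 and 10.6 (0.34), and its genotypes overlapped. The annotated ends of LTO1 (144915100 to 144931701) and Ccnd1 overlap, and without strand the reads from that stretch cannot be told apart. The nearest genes on either side showed little. Cttn, the actin-binding partner of Shank proteins that lies 11.2 kb beyond Shank2, had a log2 fold change of 0.00 (95% interval −0.58 to 0.59) and was at 60.2 and 58.7 in set A against 102 to 118 in set B. Ppfia1, the next gene, was at −0.07 and Dhcr7, 154 kb before Shank2, at 0.16.

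**Figure D4:**
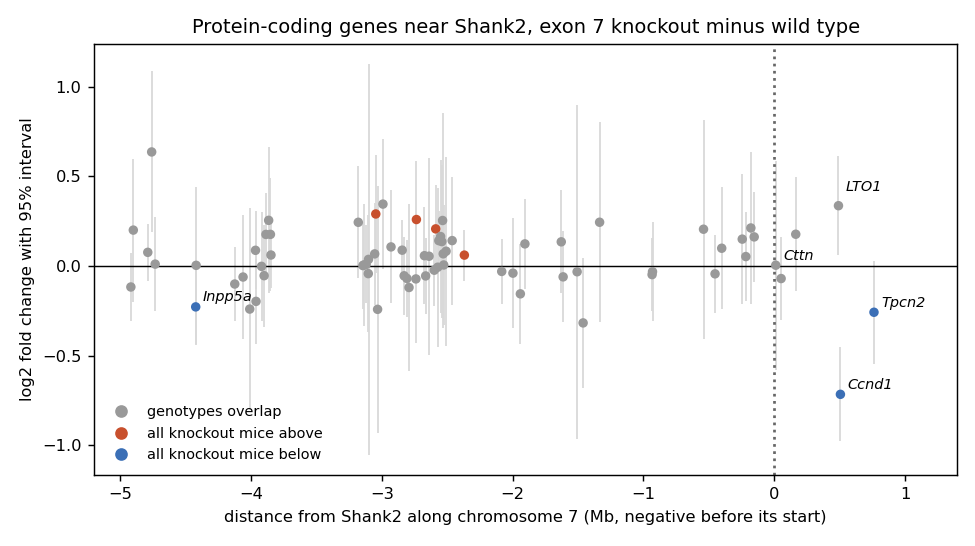
Log2 fold change with its 95% interval (y axis) of the 74 protein-coding genes tested within 5 Mb of Shank2, by distance from the gene in Mb (x axis; the dotted line is Shank2). Ccnd1 at −0.72 is the lowest, and the genes around it lie on both sides of 0.

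Among the partners of Shank2 in the postsynaptic density no gene parted the mice by genotype. Of 16 scaffold genes (among them the Shank, Dlgap, Dlg and Homer families), all measured, 0 passed and 0 parted the mice. Of all genes tested 7.04% parted them, so 0 in a list of this size does not set the scaffold genes apart. Their median log2 fold change was −0.02, with 5 above and 11 below 0, and it was 0.09 without KO969. Shank1 was at 98.0 to 138 in wild types and 98.0 to 127 in knockouts (log2 fold change −0.05), and Shank3 at 41.1 to 46.5 and 38.5 to 48.0 (−0.04). Homer1, which links Shank to metabotropic receptors and has an activity-induced short form, was lowest in KO990 and KO994 at 38.7 and 39.4, against 50.6 to 61.4 in wild types and 57.2 in KO969 (−0.29, 95% interval −0.64 to 0.05). Summed over the list, set A was at 1126 and 1116 scaled FPKM and set B at 1380 to 1431, with both genotypes at either level.

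Glutamate and GABA-A receptor genes differed by little between genotypes. Of 18 AMPA and kainate receptor genes with their auxiliary subunits, 0 passed and 12 lay below 0 (median −0.02). In all knockouts 1 was above and 2 were below, beside 3.27% and 3.76% of all genes tested. Cacng8, an AMPA receptor auxiliary subunit, was at 60.9, 64.3 and 59.8 against 70.6, 74.3 and 77.6 (log2 fold change 0.26). The 2 lower ones differed less, Shisa9, another auxiliary subunit, by −0.11 and the kainate receptor subunit Grik3 by −0.06. Of 7 NMDA receptor subunit genes 6 were measured and 0 passed (median −0.04). Grin1, the obligatory subunit, was at 147, 187 and 172 in the wild types and 150, 188 and 194 in the knockouts (0.07, 95% interval −0.18 to 0.32). The intervals of Grin2a (−0.48 to 0.25) and Grin2b (−0.44 to 0.29) allow a change of about the same size in either direction. Of 7 metabotropic glutamate receptors 0 passed (median −0.08), and Grm7, a presynaptic receptor, was at 27.4 to 28.0 in wild types and 23.0 to 26.4 in knockouts (−0.18). All 12 GABA-A receptor subunits had a log2 fold change below 0 (median −0.05), and 0 passed. The median was 0.05 without WT628 and −0.17 without KO969, so its direction rests on single mice. Gabrb1 was at 24.3 to 24.8 against at most 22.5 (−0.21), and Gabra2 at 37.8, 24.9 and 29.9 against 38.1, 28.5 and 24.1 (−0.03). The list sum was 584 and 564 scaled FPKM in WT628 and KO969 and 434 to 484 in the other mice.

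Release and secretory genes held both of the patterns named above. Of 32 presynaptic genes 0 passed (median −0.03), with 2 above and 4 below in all knockouts, beside 3.27% and 3.76% of all genes tested. Besides Unc13c, the low ones included Syt2, a fast calcium sensor (6.52, 4.62 and 4.48 against 3.61, 3.98 and 4.18, log2 fold change −0.32), and Cplx3, a complexin (−0.36). Slc17a8, the vesicular glutamate transporter VGLUT3 of some interneurons and other neurons, was at 1.46, 1.20 and 1.59 against 2.24, 2.14 and 1.88 (0.35). All 32 genes lay between −0.47 and 0.35. In the prohormone list of 11 genes the inhibitor and its target enzyme leaned opposite ways. Pcsk1, which encodes PC1/3, was at 8.52, 7.28 and 8.62 in the wild types and at 6.89, 5.71 and 6.39 in the knockouts (−0.32, SE 0.132, limma adjusted p = 1), where Pcsk1n was higher. Pcsk2, the other convertase, was at −0.05, and the granins Chga, Chgb and Scg2 at −0.03, 0.05 and −0.03.

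Thbs4, Ccnd1 and Ccs, named above for their values, had the largest differences of their lists. These lists were chosen with earlier results of these data known, so this order is no separate result. Of 14 thrombospondins, synaptogenic factors and their receptors measured, 0 passed and Thbs4 alone parted the mice, beside 7.04% of all genes tested. Thbs2 was at 0.13 and Thbs3 at 0.09 in log2 fold change, and Cacna2d1, the calcium channel subunit that binds thrombospondins, at −0.10. Of 16 G1 genes 0 passed and Ccnd1 alone parted the mice, again beside 7.04% of all genes tested. Ccnd2, with 18.6 to 24.2 in wild types and 19.6 to 22.6 in knockouts, was at 0.02, Ccnd3 at 0.03 and the partner kinase Cdk4 at 0.00. Of 15 superoxide and peroxide genes 0 passed (median 0.05). Ccs and the glutathione peroxidase Gpx1 (30.5, 35.8 and 33.2 against 35.9, 38.4 and 41.5, log2 fold change 0.21) were above in all knockouts, beside 3.27% of all genes tested. Sod1, the enzyme that Ccs loads with copper, was at 0.06 (95% interval −0.11 to 0.24).

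Genes that follow recent activity or handling varied with single mice. Of 17 immediate early genes measured 0 passed and 0 parted the mice, beside 7.04% of all genes tested. Their median was −0.13 (0.03 without KO969 and −0.25 without KO994). Fos was at 9.07, 7.59 and 9.71 in the wild types, at 3.74 and 4.99 in KO969 and KO990, and at 9.45 in KO994. The median of the list was 0.27 above the mean of the 6 mice in KO994 and 0.23 and 0.21 below it in KO969 and KO990, so the knockouts spanned the wild types. Of 11 glucocorticoid responsive genes 0 passed (median −0.21, −0.07 without WT999), and WT999 alone stood out, 0.46 above the mean. Sgk1, a kinase induced by corticosterone, was at 71.5 there and at 43.0 to 53.7 in the other 5 mice. Of 15 clock genes 0 passed and 11 lay below 0. Nr1d1 (−0.20) and Arntl (−0.25) were lower in all knockouts, beside 3.76% of all genes tested.

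Chaperone genes were mostly lower and interferon genes mostly higher, each by small amounts. Of 15 endoplasmic reticulum chaperones 14 lay below 0 (median −0.11) and of 17 cytosolic heat shock genes 15 (median −0.07), and 0 passed in either list. Among all 14214 genes tested 7572 lay below 0 and 6633 above. Hsp90b1, which folds secreted proteins, was at 195, 189 and 181 against 168, 167 and 137 (log2 fold change −0.26), and Hsph1, a nucleotide exchange factor of Hsp70, at 109, 96.3 and 117 against 93.0, 93.9 and 85.7 (−0.24). For the endoplasmic reticulum list KO994 was lowest, 0.21 below the mean, and the median was −0.02 without that mouse. Of 19 interferon response genes measured, 14 lay above 0 (median 0.11), 0 passed and 3 lay above in all knockouts, beside 3.27% of all genes tested. These were Isg15, a ubiquitin-like protein (1.61, 1.36 and 0.804 against 2.61, 1.98 and 2.42; 0.58), the membrane protein gene Ifitm2 (9.86, 9.64 and 8.66 against 11.6, 10.5 and 13.1; 0.29) and the transcription factor gene Irf7 (0.26). The median of the list was above the mean in each knockout (0.06 to 0.09) and below it in each wild type (−0.12 to −0.01), and it was 0.03 within set A.

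Ependymal and choroid plexus markers had higher sums in 2 of the 3 knockouts than in any other mouse. Of 10 ependymal cilia markers measured, 0 passed and Spag16 alone parted the mice, beside 7.04% of all genes tested. All 10 markers lay above 0 (median log2 fold change 0.41). Their sum was 28.4 to 35.9 scaled FPKM in the wild types, 28.1 in KO969, and 54.1 and 57.2 in KO990 and KO994, and no member tested was at 0. Foxj1, the master regulator of motile cilia, was at 4.70, 5.89 and 5.34 in the wild types, at 4.19 in KO969, and at 10.1 and 10.9 in KO990 and KO994. Set A gave a median of 0.01 and set B one of 0.63. These are the 2 mice with the highest Thbs4, Scand1, Ucma, Spata18 and Ndn, and the part of ependymal tissue in those values was not tested. In bulk tissue more cells of a type and more RNA per cell cannot be told apart. Of 15 choroid plexus markers 13 lay above 0 (median 0.23, −0.10 within set A, 0.13 without KO990), with sums of 1844 to 2149 in the wild types, 2132 in KO969 and 2722 and 2846 in KO990 and KO994. Of 13 meningeal markers 12 lay above 0 (median 0.19, 0.28 within set A and 0.23 in set B), with sums of 160 to 178 in the wild types and 179 to 212 in the knockouts. Blood genes moved with single mice. The sum of 5 markers was 101 in WT628, 200 to 290 in WT993 and WT999, 390 in KO969 and 255 and 265 in KO990 and KO994, so their median of 0.73 became 1.92 in set A and 0.13 in set B, and 0.27 without WT628.

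Glial markers differed less. All 18 myelin and oligodendrocyte markers lay below 0 (median −0.12, −0.06 without KO990), 0 passed, and their sum was 5571 to 5720 in the wild types and 5005 to 5340 in the knockouts. Mobp, a myelin structural protein, was at 659, 658 and 748 against 590, 637 and 651 (log2 fold change −0.13). The medians of 14 astrocyte, 17 microglia, 7 precursor and 16 vascular markers lay between −0.03 and −0.00463, with 0 passing. Gfap, the astrocyte intermediate filament, was at 112, 108 and 141 in the wild types and 115 in KO969, and at 162 and 167 in KO990 and KO994.

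Markers of hippocampal neurons were present in every mouse, which alone does not check the dissection. The dentate granule cell markers summed to 190 to 221 scaled FPKM, the CA1 markers to 198 to 230 and the CA2 and CA3 markers to 531 to 599. The genotypes overlapped in the granule cell and the CA2 and CA3 sums, and in the CA1 sum the highest knockout (218) lay just under the lowest wild type (219). Of the 12 granule cell markers 2 were higher in all knockouts, beside 3.27% of all genes tested, C1ql2, a secreted ligand at mossy fibre synapses (20.7, 22.3 and 18.9 against 24.8, 30.9 and 32.8; log2 fold change 0.49), and the transcription factor gene Glis3 (0.29), while the median was 0.01. Of 8 CA1 markers 7 lay below 0 (median −0.12, −0.07 without WT628), with Fibcd1 at 20.1, 23.7 and 21.7 in the wild types, 21.2 in KO969, and 14.6 and 16.4 in KO990 and KO994. Of 16 interneuron markers 0 passed (median −0.04), and Htr3a, a serotonin-gated channel of one interneuron class, was at 4.53 to 5.62 against 5.95 to 6.16 (0.26). Of 9 immature neuron markers 6 lay above 0 and 3 below. Their median of 0.09 was 0.01 within set B and −0.02 to 0.17 with 1 mouse left out. Cd24a, named above for parting the mice, and Sox4 were higher in all knockouts, beside 3.27% of all genes tested. Sox4 was at 6.18 to 6.73 against 7.15 to 8.24 (log2 fold change 0.22). Of 20 markers of thalamus, striatum and cortex, 0 passed and 12 lay below 0 (median −0.12). Their sums, 187 to 230 scaled FPKM, were close to those of the granule cell and CA1 markers.

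Large housekeeping families lay close to the median of all genes tested (−0.01), and the autism and channel lists lay somewhat below it. Of all 14214 genes tested 6633 lay above 0 and 7572 below. Of 82 ribosomal protein genes 0 passed (median 0.03), with 4 above and 0 below in all knockouts. Of 81 nuclear oxidative phosphorylation genes 0 passed (median 0.01), with 5 above and 1 below. These counts stand beside 3.27% above and 3.76% below among all genes tested. Cox5a, a subunit of cytochrome c oxidase, was at 134, 129 and 130 against 147, 161 and 150 (log2 fold change 0.22). The 13 mitochondrially encoded mRNAs had a median of −0.01 and followed the sets, the list being 0.22 and 0.19 above the mean in WT628 and KO969 and below it in the other 4 mice. Of 34 autism-associated genes 32 lay below 0, with a median of −0.06, and 0 passed. Tsc1, a growth inhibitor of the mTOR pathway, parted the mice (−0.15), beside 7.04% of all genes tested. Of 21 potassium and HCN channel genes 17 lay below 0 (median −0.09), among them Kcnma1, the large-conductance calcium-activated channel (29.6, 27.9 and 28.9 against 27.8, 24.9 and 23.1; −0.19).

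**Figure D5:**
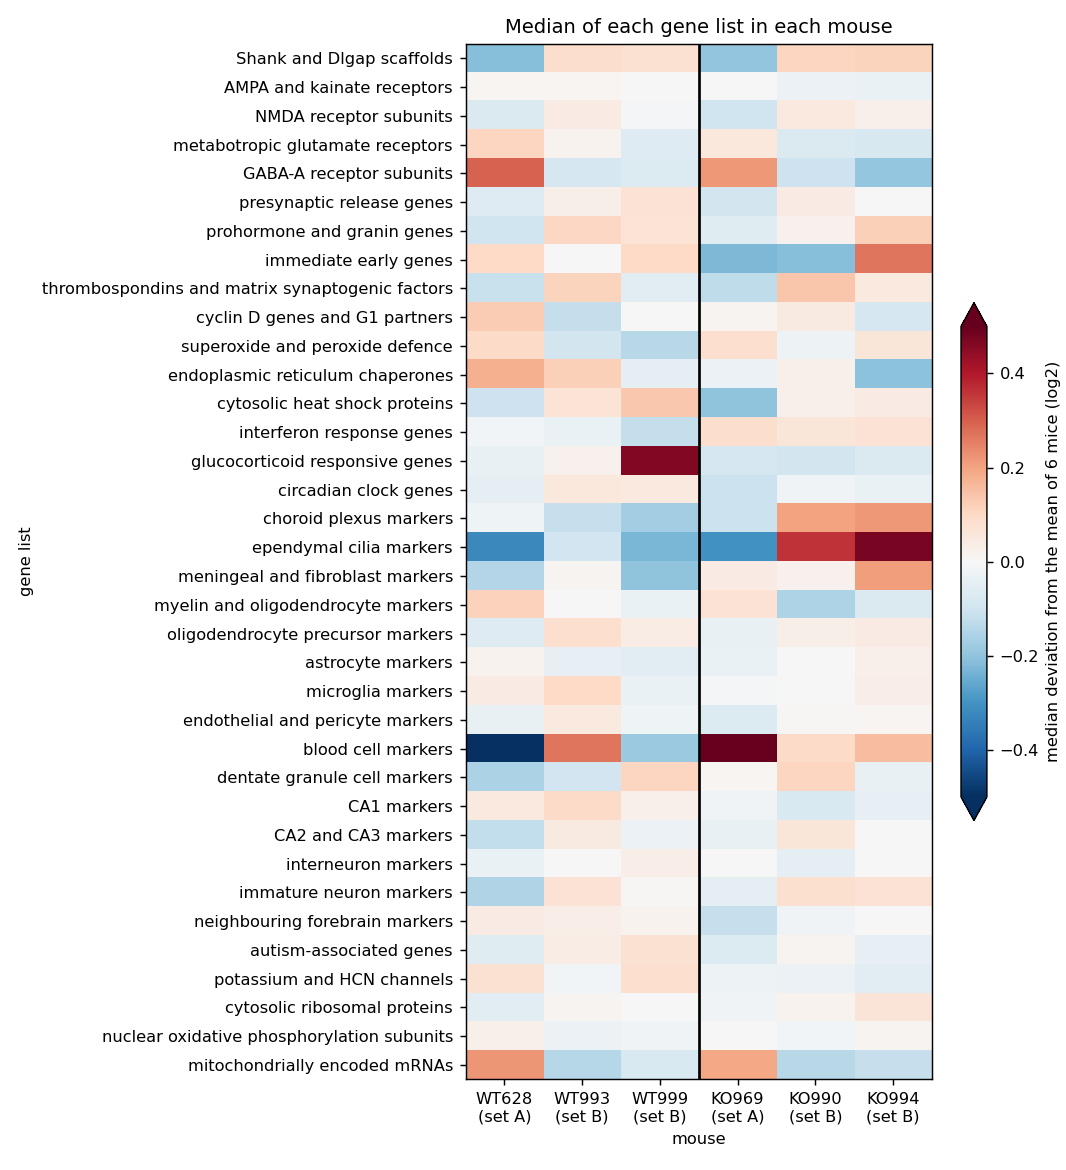
Median deviation of each of 36 gene lists from the mean of the 6 mice (colour, log2 units, capped at 0.5 to either side), 1 column per mouse with wild types left of the black line. The ependymal and choroid plexus lists are highest in KO990 and KO994, the glucocorticoid list in WT999, and GABA-A and mitochondrial lists follow set A.

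The test of the difference between the 2 lines called 1 gene (0.00704% of genes tested; 551 or 3.88% at an unadjusted p under 0.05), Rps3a1 of the small ribosomal subunit. In the exon 7 line Rps3a1 averaged 127 scaled FPKM in the wild types (SD 10.04, n = 3) and 120 in the knockouts (SD 7.19, n = 3), and the log2 fold change was −0.08. In the exon 6-7 line the log2 fold change was 5.08, with 2.41 ± 0.608 in the wild types and 113 ± 8.83 in the knockouts (SD, n = 3 each). This made a difference of −5.16 (95% interval −5.55 to −4.77, limma adjusted p = 3.17e-08). Of the 4 groups only the exon 6-7 wild types were low, and why was not tested. Shank2 values were lower in both genotypes of the exon 6-7 line. They were 14.4 ± 0.576 in wild-type and 6.46 ± 0.483 scaled FPKM in knockout animals (SD, n = 3 each). The libraries of the lines also differed, with a mitochondrial share of 6.22 to 7.39% there and 10.3 to 14.3% in the exon 7 line. Line and library cannot be separated here, so whether the lower Shank2 level belongs to the line was not tested. For Shank2 the difference between the lines in log2 fold change was 1.02 (95% interval 0.66 to 1.39) and did not pass (limma adjusted p = 0.409). For Thbs4 it was 1.44 (0.51 to 2.36, adjusted p = 1), so the higher Thbs4 values are not shown to be particular to the exon 7 knockout. Ccnd1 differed in both lines by nearly the same amount, −0.72 here and −0.69 there, with a difference of −0.02 (−0.39 to 0.35).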

How the data were processed

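The authors deposited 1 table per mouse with FPKM per gene and Ensembl release 74 identifiers, per the file headers; only values above 0 are listed there. CASAVA, the aligner GSNAP, Cufflinks and the mm10 build appear, without order, in the submitters' processing notes; no source at hand states strand, filters or multiple matches. Of ratios between low values (0.005 to 0.15 FPKM) of 2 exon 7 mice at most 39.1% lay within 0.1 log2 of their mode, so reads were not recovered and no counting error is attached.

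An unlisted gene was set to 0. Each library was divided by its median ratio to the geometric mean over 12511 genes (factors 0.919 to 1.07), and genes with a mean of at least 1 over all 12 mice were tested as log2(scaled FPKM + 1), which understates changes of low genes; annotated small RNAs were left out. Symbols, coordinates, length and GC content came from GENCODE M21 (GRCm38), which gave 24077 of 24590 identifiers a symbol. limma 3.58.1 (limma-trend, R 4.3.3) fitted 4 group means with 1 spread from all 12 mice (8 residual degrees of freedom), two-sided, with Benjamini-Hochberg adjustment over all genes tested and a threshold of 0.05. It was tested on simulated data. Mouse numbers are unique and pair no animals. Tables and figures used Python 3.11.15 and matplotlib 3.10.9.

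Named were Shank2, Thbs4, the 12 genes with the smallest p in each direction whose genotypes do not overlap (clone names left out), up to 8 past the threshold with the set term (there were 0), up to 5 past it in the line difference, up to 4 members per list (any member of the scaffold, receptor, cyclin D, thrombospondin, prohormone and superoxide lists), and genes near Shank2. Members and the 36 lists were chosen with earlier results of these data known. Alternatives were pseudocounts of 0.1 and 5, no filter or a mean of at least 5 FPKM, other scalings, the exon 7 line alone, a set term, each set, array weights, robust empirical Bayes, length and GC trends removed, and each of the 6 mice left out. The set-term fit under these alternatives was added after seeing the data.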

Additional observations from a re-analysis of the deposited data

Results flagged for a closer look

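For Rps3a1 the difference between knockout and wild type was not the same in the 2 lines. The difference was −5.16 log2 units by the interaction test (limma adjusted p = 3.17e-08), with −0.08 in the exon 7 line. In the exon 7 line the 6 mice lay between 112 and 136 scaled FPKM. The exon 6-7 wild types averaged 2.41 ± 0.608 and the exon 6-7 knockouts 113 ± 8.83 (SD, n = 3 each). Why those wild types were low was not tested. Values of genes with near-identical copies are uncertain.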

How the results depend on the processing

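Genes past the threshold between exon 7 knockout and wild type numbered 0 in the analysis reported, 1 with a pseudocount of 0.1, 1 with no filter, 2 within set B (Ndn and a clone-named gene), and 0 to 2 with 1 mouse left out: 1 without WT993 (a clone-named gene), 2 without WT999 (Ccnd1, Spata5) and 1 without KO969 (Ndn). With the set term, chosen for these repeats after seeing the data, they numbered 0, but 1 with a pseudocount of 0.1, 8 when rescaled to TPM (all higher, among them Thbs4, Ucma, Pcsk1n, Dnph1 and Scand1), 1 with length and GC trends removed (Scand1), and 0 to 3 with 1 mouse left out: 3 each without WT628 or KO969 (Ndn and Scand1 among them), 3 without WT993 and 2 without WT999. The difference between the lines called 1 gene, 2 with a pseudocount of 0.1, 2 with array weights, 2 with length and GC trends removed, 3 with the set term, 3 within set B, and 1 to 3 with 1 mouse left out (3 without KO969). The cause was not tested. Shank2 in the exon 7 line (−0.02) was above 0 when rescaled to TPM (0.0271), within set B (0.0268) and with array weights (0.0128), and −0.11 to 0.11 with 1 mouse left out (0.01 without WT993, 0.04 without WT999, 0.11 without KO969), never passing. The genes named for the smallest p in either direction, and Rps3a1 in the line difference, kept their direction in every alternative run. The former were chosen because their genotypes do not overlap. Their direction was thus fixed in advance where a mouse was left out, a set was taken alone or the pseudocount changed. Cttn (−0.28 without WT628, 0.31 without KO969), Ppfia1 and other genes near 0 turned sign. The list medians moved by less than the spread between mice in 716 values under the alternatives and by more in 40, and in 18 of 36 lists the median turned sign with 1 mouse left out. No paired analysis was possible because mouse numbers are unique. FPKM hold no read totals, so depth could not be set against any value.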
